A study of Mus musculus with 4 samples.

Results

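The imprinted genes of the newborn mouse brain were examined, that is, genes of which mainly the copy inherited from one parent is used. A list of 41 genes was taken (22 expressed from the paternal copy, 17 from the maternal copy, and 2, Grb10 and Gnas, with transcripts of both origins), and each was found on the array through the RefSeq or GenBank accession of its probes. Of the 41 genes, 38 had a named probe, with 63 probes in all, among 25399 genes and unnamed accessions on the array. Where a gene had several probes, the one with the highest mean log2 signal over the 4 arrays stood for it. No probe was named for H19, Rian or Snurf, and those of Rtl1 and Phlda2 stayed below the limit of well above background throughout. The remaining 36 genes (20 paternal, 14 maternal and both genes of mixed origin) were well above background on all 4 arrays, and differences were counted over these 36.

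The RNA came from whole brains of C57BL/6J offspring at postnatal day 1. Dams of the TiO2-H groups received 100 μg of titanium dioxide nanoparticles by intratracheal instillation of 25 μL of a 4 μg/μL suspension, and dams of the Sham groups received the same volume of the suspension after its particles had been taken out. The exposure is dated to gestational day 10.5 in the protocol and to day 14 in the sample descriptions. Each combination of exposure and sex was represented by 1 pool of brain RNA (2 offspring per dam, from 5 Sham dams or 6 TiO2-H dams) on 1 one-color array, where a brighter spot means more of its target RNA. The male and female pools of an exposure came from the same set of dams, so that the 2 arrays per exposure share litters.

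Between 56.2% and 61.2% of the spots of an array were well above background, and no spot was saturated. Both Sham arrays lay in one row of the slide and both TiO2-H arrays in the other, so that slide row, litters and exposure cannot be told apart. The sex labels of the TiO2-H arrays went against sex-linked genes. Xist, an RNA of the inactive X chromosome, had a signal of 276 in Sham female and 347 in the pool labelled TiO2-H male, and stayed near background in the other pools. The Y-linked gene Eif2s3y read 3519 in Sham male, 419 in Sham female and 4345 in the pool labelled TiO2-H female, and stayed near background in that labelled TiO2-H male. Hence each TiO2-H array is called by its label only, and the main comparison, both TiO2-H arrays against both Sham arrays, does not use the sex labels. The Sham female pool held signal of Xist and also of Y-linked genes (Eif2s3y 419, Ddx3y 142). The Sham pair is thus not a clean contrast of the sexes, and the cause was not tested. All 6 neuronal markers (Tubb3, Snap25, Stmn2, Map2, Syt1 and Rbfox3) were well above background on every array, with a median log2 difference (TiO2-H minus Sham) of 0.058 (−0.055 to 0.19). The 6 endothelial markers had a median of 0.11 (−0.091 to 0.31), with 5 above 0, where 9759 of the 18824 genes tested were. The 4 microglial markers (Cx3cr1, Csf1r, Aif1 and P2ry12) were all higher on both TiO2-H arrays, an order that 28.9% of all genes tested showed. Their median log2 difference was 0.15. The 3 measurable erythroid markers had a median of −0.17 (−0.25 to −0.12). Both TiO2-H arrays were below both Sham arrays for 2 of them, an order that 26.5% of all genes tested showed. Of the 3, Hbb-bh1 was well above background on 1 array only. The 10 markers of the leptomeninges, the membranes around the brain, had a median of 0.056 (−0.10 to 0.12), and the 8 of the choroid plexus a median of −0.0022 (−0.070 to 0.16). The part of these cell types in the differences of the imprinted genes was not tested, and in whole brain fewer cells of a type and less RNA per cell cannot be told apart.

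Imprinted genes lie in clusters, and each cluster is ruled by a stretch of DNA that is methylated in one parental germ line and stays so after fertilization. The methylation decides whether a noncoding RNA, an insulator or a promoter is active on that copy. Many paternally expressed genes promote fetal growth and many maternally expressed genes restrain it, and in the brain imprinted genes act in neuronal growth, feeding and social behavior. A probe reads the RNA of both copies together, so that a signal does not tell which copy the RNA came from.

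The stretch of 250 bases in front of the gene start is shown for the 4 members with an annotated window that the results below turn on. They are the paternally expressed Zdbf2, Mest and Kcnq1ot1 and the maternally expressed Ascl2, and their CG dinucleotides, the sites of DNA methylation, are in capitals. The sequences are from RefSeq, build GRCm38.p6, and are written 5′ to 3′ on the strand of the gene. They are chr1:63200108-63200357 (plus strand) for Zdbf2, the first of 2 windows of this gene, chr6:30737800-30738049 (plus strand) for Mest, the second of 3 windows, chr7:143296548-143296797 (minus strand) for Kcnq1ot1 and chr7:142969265-142969514 (minus strand) for Ascl2.
Zdbf2: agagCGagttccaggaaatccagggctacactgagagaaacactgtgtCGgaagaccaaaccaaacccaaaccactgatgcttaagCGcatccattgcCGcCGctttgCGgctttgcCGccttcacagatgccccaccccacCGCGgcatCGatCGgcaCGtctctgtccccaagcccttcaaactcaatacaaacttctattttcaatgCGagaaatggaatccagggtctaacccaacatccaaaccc
Mest: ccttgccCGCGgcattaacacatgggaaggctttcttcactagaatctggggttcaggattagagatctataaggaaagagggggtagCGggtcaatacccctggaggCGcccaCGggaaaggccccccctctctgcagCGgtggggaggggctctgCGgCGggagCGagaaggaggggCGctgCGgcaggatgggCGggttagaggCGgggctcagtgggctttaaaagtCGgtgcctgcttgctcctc
Kcnq1ot1: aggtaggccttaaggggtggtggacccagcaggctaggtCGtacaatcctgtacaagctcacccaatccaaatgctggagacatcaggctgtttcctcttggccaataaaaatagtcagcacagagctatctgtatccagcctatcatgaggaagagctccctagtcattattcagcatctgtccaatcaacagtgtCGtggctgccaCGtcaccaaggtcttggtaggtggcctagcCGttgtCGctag
Ascl2: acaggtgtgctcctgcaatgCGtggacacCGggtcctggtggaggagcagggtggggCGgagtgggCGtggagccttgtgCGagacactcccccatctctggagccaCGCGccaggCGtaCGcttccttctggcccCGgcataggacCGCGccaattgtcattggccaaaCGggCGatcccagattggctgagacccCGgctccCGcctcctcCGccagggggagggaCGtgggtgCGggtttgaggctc
The window of Zdbf2 holds 13 CG dinucleotides, that of Mest 14, that of Kcnq1ot1 5 and that of Ascl2 19. The letters TGCCGC, the hexamer bound by the imprint-protecting zinc finger protein ZFP57 when methylated, and their reverse complement GCGGCA were searched on both strands. They occur 3 times in the Zdbf2 window, at positions 96, 115 and 144 counted from its 5′ end, and in the Mest window at positions 9 and 184. The other window of Zdbf2, not shown, has 26 CG dinucleotides and no hexamer, and neither does the first window of Mest hold one. They occur in neither of the other windows shown. Windows were given for 33 of the 41 genes (50 windows), of which 8 windows (16.0%) hold the hexamer, against 8.68% of all 32851 promoter windows of the build. The 8 windows belong to Calcr, Copg2, Meg3, Mest, Plagl1, Zdbf2 and Zim1, and the windows of Mest that hold it overlap each other. The median number of CG dinucleotides was 10 per window for the 41 genes and 6 for all windows. It was 8 in the windows of paternally expressed genes and 11 in those of maternally expressed genes. All of the hexamer-holding genes lay among those with both TiO2-H arrays above both Sham arrays (8 of 27 windows, 29.6%), and the 10 windows of the genes with the opposite order held none. Several windows belong to the same gene and are not independent. The share among all genes of either order was not computed, and a link between hexamer and order was not tested. These are descriptions of letters, and no methylation data of these windows was analysed here.

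The first comparison asks whether imprinted genes differed between the brains of offspring of exposed and sham-exposed dams. All differences are on the log2 scale, TiO2-H minus Sham, after each signal was divided by the 75th percentile of its array. No gene on the array had an adjusted p under 0.05 in limma (18824 genes tested, 0 called or 0.0%, smallest adjusted p = 0.276), although 3144 genes were under 0.05 before adjustment, and no imprinted gene was called. With 2 arrays against 2, an exact permutation test of a single gene (two-sided) cannot go below p = 0.333. The spread behind these values, and behind the SEs and intervals below, starts from that between the 2 pools of an exposure. In limma it is drawn toward a spread shared by all genes. The SE of a gene with nearly equal arrays is thus larger than its own spread. For Impact, the arrays differed by 0.0039 (Sham) and 0.0085 (TiO2-H), and the SE was 0.035. The 2 pools of an exposure differ in sex label and share litters, so that variation between sets of dams is not in this spread.

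Differences of the imprinted genes were small and ran from −0.30 for Ascl2 to 0.42 for Kcnq1ot1, with a median of 0.064 over the 36 genes and 0.0065 over all genes tested. In 18 of the 36 genes the difference was under 0.1 in size. None reached 1.5-fold (1.44% of all genes did, and 0.572% of the genes well above background on all 4 arrays) and none was at or below 0.67-fold (2.62% and 0.53%). For 33 of the 36 genes (91.7%) the 95% interval of the limma fit lay wholly between these limits, as it did for 82.3% of all genes. The 3 exceptions were Zdbf2, Kcnq1ot1 and Slc22a18. Both TiO2-H arrays were above both Sham arrays for 20 of the 36 genes (55.6%), where 28.9% of all genes tested, and 30.9% of the 16602 genes well above background on all 4 arrays, showed this order. Both were below for 8 genes (22.2%, against 26.5% and 25.8%), and the arrays of the 2 exposures overlapped for the other 8. Before adjustment, limma gave p under 0.05 with a higher TiO2-H mean for 8 imprinted genes (22.2%, against 10.4% of all genes) and with a lower mean for 3 (8.33%, against 6.26%). The share with the higher order was thus above the background and the share with the lower order near it. The genes of one cluster share regulation and are not independent of each other, and no test was made over the list.

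**Figure D1:**
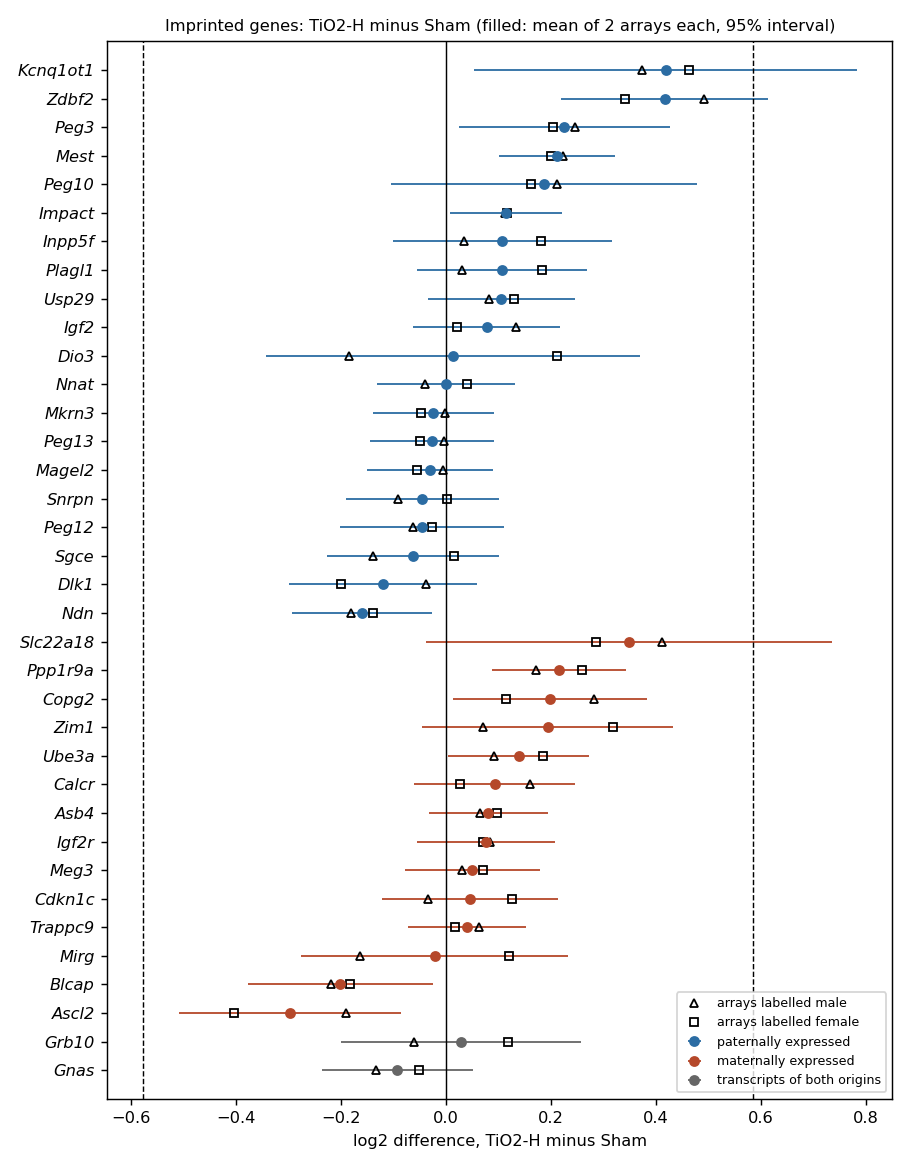
Log2 difference of TiO2-H minus Sham (horizontal axis) for the 36 imprinted genes measured, with paternally expressed genes on top, maternally expressed genes in the middle and genes of both origins at the bottom. Filled circles are means of 2 arrays per exposure with the 95% interval of the limma fit, open triangles and squares the pairs of arrays labelled male and female, and dashed lines 0.67-fold and 1.5-fold. No mean crosses a dashed line, and 3 intervals do.

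**Figure D2:**
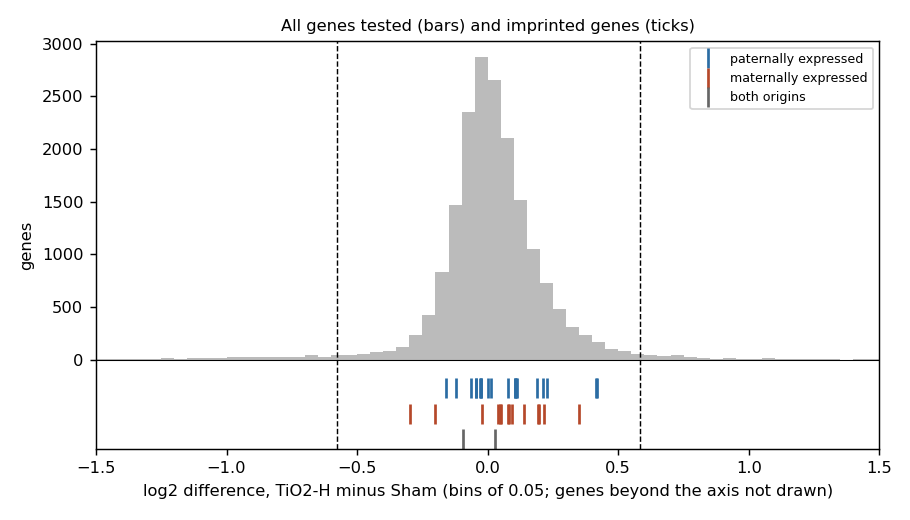
Distribution of the log2 difference of TiO2-H minus Sham over the genes tested (bars, number of genes per bin of 0.05, genes beyond the axis not drawn) and the imprinted genes (ticks, by parent of origin). Dashed lines mark 0.67-fold and 1.5-fold, and all 36 ticks, from −0.30 to 0.42, lie between them.

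Unscaled, the arrays labelled TiO2-H were brighter (75th percentiles of 867 and 871 against 810 and 795), and the median difference of all genes was 0.12. The order of arrays depends on this. Without scaling, 27 of the 36 genes had both TiO2-H arrays above both Sham arrays and 1 had the reverse, where 59.8% and 6.79% of all genes did. Quantile normalization gave 20 and 7 (28.7% and 26.9% of all genes), and the median of detected probes as the scale 20 and 9 (27.5% and 27.9%). In the values below, a relative signal is the signal as a percentage of the 75th percentile of its array, and it is compared only between arrays, for 1 probe at a time.

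The paternally expressed gene Zdbf2, which encodes a zinc finger protein, had one of the largest differences. Its relative signal was 35.8% in Sham male and 36.0% in Sham female, against 50.4% and 45.6% on the arrays labelled TiO2-H male and female. Both TiO2-H arrays were above both Sham arrays, which were close to each other. The difference was 0.42 ± 0.066 (SE, 2 arrays per exposure, limma adjusted p = 0.276), and the 95% interval ran from 0.22 to 0.61. A second, dimmer probe of Zdbf2 gave 0.47. Its deposited signals were 94.8 and 71.1 on the Sham arrays and 117 and 130 on the arrays labelled TiO2-H male and female. The order of the exposures was the same for both probes. With a background correction by normexp the difference of the brighter probe was 0.23.

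In the domain of Igf2 and Kcnq1, which holds a fetal growth factor and a noncoding RNA that silences its neighbors on the paternal chromosome, 5 of 7 genes were measured, with a median of 0.077. Kcnq1ot1, the silencing RNA, had relative signals of 9.96% (male) and 11.2% (female) for Sham against 12.9% and 15.4% on the arrays labelled TiO2-H male and female. The exposures did not overlap, and the array labelled TiO2-H female was the highest. The difference was 0.42 ± 0.12 (SE, 2 arrays per exposure, limma adjusted p = 0.281). Its deposited signals were low, from 80.7 to 134, and the difference was 0.080 after normexp correction. A second probe of Kcnq1ot1 was well above background on 1 array only.

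Of the maternally expressed genes that Kcnq1ot1 represses in embryo or placenta, Cdkn1c, a brake of the cell cycle, differed by 0.046 with overlapping arrays. Slc22a18, a membrane transporter, had relative signals of 14.9% and 18.2% on the Sham arrays and 19.9% and 22.1% on the arrays labelled TiO2-H male and female. The exposures did not overlap, but the Sham arrays differed from each other by 0.28, nearly as much as the exposures (0.35 ± 0.13, SE, 2 arrays per exposure, limma adjusted p = 0.316). Ascl2, a transcription factor of the trophoblast, had the lowest difference of all members. Its relative signals were 21.9% and 23.1% on the Sham arrays and 19.2% and 17.4% on the arrays labelled TiO2-H male and female. Both TiO2-H arrays were below both Sham arrays, with a difference of −0.30 ± 0.071 (SE, 2 arrays per exposure, limma adjusted p = 0.276). Kcnq1ot1 and Ascl2 thus lay at opposite ends of the range, while in the same domain Cdkn1c was close to 0 and Slc22a18 differed in the direction of Kcnq1ot1.

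Igf2, the growth factor, had relative signals of 68.8% and 72.0% on the Sham arrays and 75.5% and 73.0% on the arrays labelled TiO2-H male and female, a difference of 0.077. Igf2r, the receptor that clears IGF2 and is maternally expressed in most tissues, was read from 10 spots per array. Its relative signals were 112% and 116% on the Sham arrays and 118% and 122% on the TiO2-H arrays, again a difference of 0.077. For both genes the exposures did not overlap. The SD of the 10 single spots of Igf2r on 1 array was 0.072 to 0.10 (log2). The difference compares means of 10 spots per array, whose spot error is smaller than this SD. Grb10, an adaptor that dampens insulin and IGF receptor signaling and is paternally expressed in neurons but maternally in other tissues, differed by 0.028 with overlapping arrays.

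All 3 genes of the Peg3 domain were higher on both TiO2-H arrays, with a median of 0.19. Peg3, a paternally expressed zinc finger gene linked to maternal behavior, had relative signals of 105.5% and 99.7% on the Sham arrays and 125% and 115% on the arrays labelled TiO2-H male and female. The arrays did not overlap, and the difference was 0.23 ± 0.067 (SE, 2 arrays per exposure, limma adjusted p = 0.284). A second probe of Peg3, also well above background, differed by 0.0072. The neighboring deubiquitinase gene Usp29 differed by 0.11. The maternally expressed zinc finger gene Zim1 differed by 0.19, with 0.070 on the arrays labelled male and 0.32 on those labelled female.

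In the Mest domain both genes were higher on both TiO2-H arrays. Mest is a paternally expressed gene of the hydrolase fold family. Its relative signals were 197.5% and 201% on the Sham arrays and 230.4% and 231% on the arrays labelled TiO2-H male and female. The exposures were well apart and the arrays within an exposure nearly equal, with a difference of 0.21 ± 0.037 (SE, 2 arrays per exposure, limma adjusted p = 0.276). The 10 spots of this probe had an SD of 0.064 to 0.087 on each array, and the other 2 probes of Mest gave 0.26 and 0.15. Copg2, which encodes a coatomer subunit and overlaps Mest in the gene table, had relative signals of 241% and 262% on the Sham arrays and 293% and 284% on the TiO2-H arrays. These did not overlap either, with differences of 0.20 and, for its second probe, 0.30.

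In the Peg10 domain 4 of 5 genes were higher on both TiO2-H arrays. Ppp1r9a, which encodes the synaptic actin-binding protein neurabin and is maternally expressed in some tissues only, had relative signals of 695% and 678% on the Sham arrays and 783% and 811% on the arrays labelled TiO2-H male and female. The arrays did not overlap, and the difference was 0.22 ± 0.042 (SE, 2 arrays per exposure, limma adjusted p = 0.276), with 0.060 for the second, dimmer probe. Peg10, derived from a retrotransposon and needed in the placenta, differed by 0.19 with one probe and −0.20 with the other. Both its probes were dim. Asb4, a subunit of ubiquitin ligases, and Calcr, the calcitonin receptor, differed by 0.081 and 0.092. Sgce, ε-sarcoglycan, differed by −0.063 with overlapping arrays.

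In the domain of the Prader-Willi and Angelman syndromes 5 of 6 genes measured had differences below 0 (median −0.038), where 9065 of the 18824 genes tested did. Ndn, which encodes the neuronal growth suppressor necdin, had relative signals of 3118% and 2978% on the Sham arrays and 2749.7% and 2703% on the TiO2-H arrays. Both TiO2-H arrays were lower, with a difference of −0.16 ± 0.045 (SE, 2 arrays per exposure, limma adjusted p = 0.277). Magel2 (−0.031) and Mkrn3 (−0.025), both of which act in ubiquitination, were also lower on both TiO2-H arrays, by less than the SD of repeated spots given further on. Snrpn, a splicing protein gene, and Peg12 differed by −0.045 and −0.046, with overlapping arrays. Without scaling, Magel2, Mkrn3, Snrpn and Peg12 were above 0. Ube3a, the ubiquitin ligase that neurons express from the maternal copy, was the exception. Its relative signals were 63.3% and 60.4% on the Sham arrays and 67.4% and 68.6% on the TiO2-H arrays, without overlap. The difference was 0.14 ± 0.045 (SE, 2 arrays per exposure, limma adjusted p = 0.295).

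In the Dlk1-Dio3 domain 4 of 6 genes were measured, with a median of −0.0042. Dlk1, a transmembrane protein related to Notch ligands, had relative signals of 370.5% and 402% on the Sham arrays and 360.6% and 350.1% on the TiO2-H arrays, which lay just below. The difference was −0.12 with each of its 2 probes, which were read on the same arrays. It was −0.061 without the Sham female array and −0.0057 without scaling. Meg3, a maternally expressed noncoding RNA, differed by 0.050 with its brightest probe and by 0.17 and 0.32 with the others, all above 0. Mirg, a host of microRNAs (−0.022), and Dio3, the enzyme that inactivates thyroid hormone (0.013), had overlapping arrays. For Dio3 the Sham arrays differed from each other by −0.26 (female minus male), more than the exposures.

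In the Nnat domain, Nnat, a small neuronal membrane protein gene, differed by 0.00. Blcap, inside whose intron Nnat lies, had relative signals of 379.9% and 354% on the Sham arrays and 326% and 311.5% on the TiO2-H arrays. These did not overlap, and the difference was −0.20 ± 0.059 (SE, 2 arrays per exposure, limma adjusted p = 0.281). The Peg13 domain held the paternally expressed noncoding RNA Peg13 (−0.027) and Trappc9, a subunit of a vesicle tethering complex, with 0.040 for one probe and −0.16 for the other. Impact, a translation regulator abundant in neurons, had relative signals of 552% and 554% on the Sham arrays and 597% and 600.3% on the TiO2-H arrays. The arrays within an exposure were nearly equal, with a difference of 0.11 ± 0.035 (SE, 2 arrays per exposure, limma adjusted p = 0.289). The other, dimmer probe of Impact, well above background on all 4 arrays, gave −0.0012, and the mean of the probes gave 0.056. Plagl1, a zinc finger regulator of other imprinted genes, and Inpp5f, a phosphoinositide phosphatase, both differed by 0.11, without overlap.

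Gnas, which encodes the stimulatory G protein α subunit from both copies and other transcripts from one, differed by −0.093 with its brightest probe (accession NM_010309). The probe of NM_019690 gave −0.0033. The probe of NM_201617 was dim, with deposited signals of 65.0 and 73.0 on the Sham arrays, 164 on the array labelled TiO2-H male and 93.5 on the array labelled TiO2-H female. That probe gave 0.73, most of it from 1 array. The same array, labelled TiO2-H male, also read highest for the pituitary hormone genes Gh (301) and Pomc (956). A relation between these values was not tested.

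**Figure D3:**
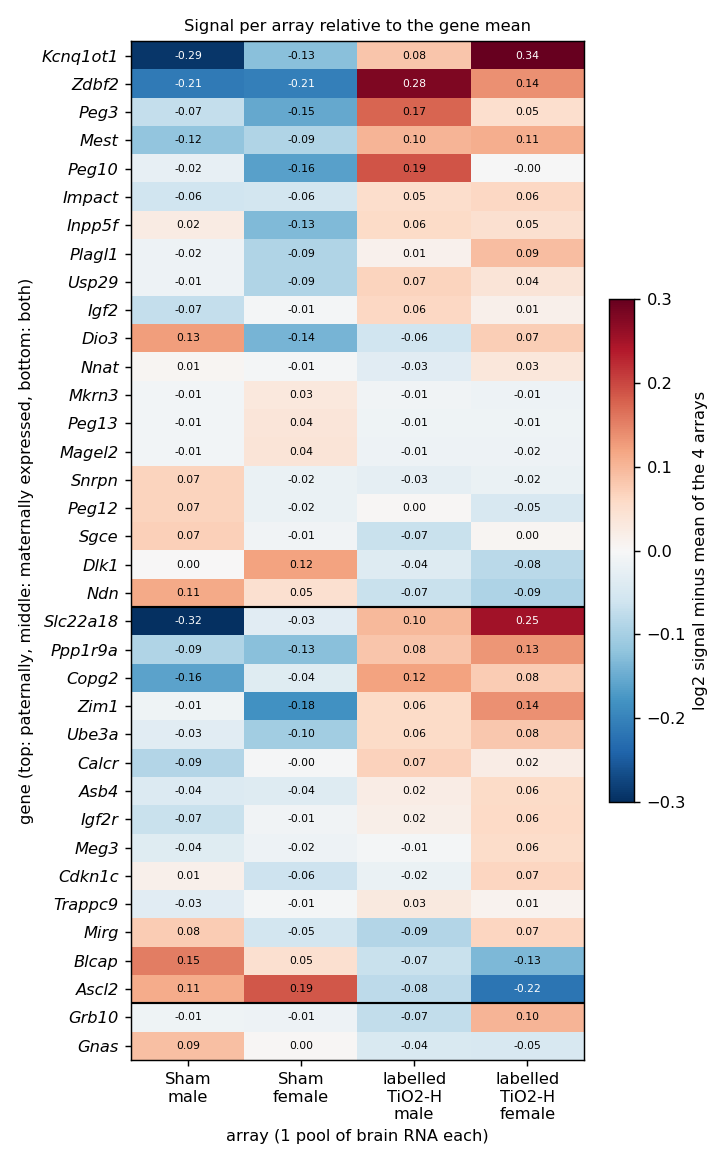
Signal of each imprinted gene on each of the 4 arrays (columns) as log2 signal minus its mean over the 4 arrays (color, −0.3 blue to 0.3 red, with the values printed in the cells). Rows are grouped into paternally expressed, maternally expressed and both, in the order of their difference, and the top rows of the first 2 blocks pass from blue on the Sham arrays to red on the arrays labelled TiO2-H while the bottom rows pass the other way.

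The second comparison asks whether paternally and maternally expressed genes differed in their direction. The median difference was 0.045 for the 20 paternally expressed genes (12 above and 8 below 0, range −0.16 to 0.42) and 0.079 for the 14 maternally expressed genes (11 above and 3 below 0, range −0.30 to 0.35). Of all 18824 genes tested, 9759 were above and 9065 below 0. Both TiO2-H arrays were above both Sham arrays for 10 of the 20 paternal and 10 of the 14 maternal genes (28.9% of all genes), and below for 5 and 2 (26.5%). The paternal median was 0.014 on the arrays labelled male and 0.078 on those labelled female, and the maternal median 0.067 and 0.11. The gap between the medians, paternal minus maternal, was −0.033, with an SD of 0.018 over the label pairs (n = 2). The same gap was −0.050 between the Sham arrays (female over male), which share the exposure, and −0.041 between the TiO2-H arrays. In this setting it was no larger than between arrays of one exposure. Without the members imprinted in some tissues or transcripts only, the medians were 0.00 (17 paternal) and 0.065 (8 maternal), and the gap of −0.065 was larger in size than those between the Sham arrays (0.022) and the TiO2-H arrays (−0.049). It was also larger than both after normexp correction (−0.080 against 0.012 and −0.050) and with the mean of the probes (−0.082 against −0.0094 and −0.045). With quantile normalization it was smaller in size than both (−0.014 against −0.035 and −0.041), and without scaling the gaps were unchanged. Leaving out the Sham male array turned the gap to 0.014.

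The third comparison is that within a sex label, 1 array against 1, with no replicate and hence no test. No imprinted gene passed 1.5-fold or 0.67-fold on the arrays labelled male, where 2.82% and 2.24% of 18005 genes did, or on those labelled female, where 1.98% and 2.22% of 18274 genes did. The members ran from −0.22 (Blcap) to 0.49 (Zdbf2) on the arrays labelled male and from −0.41 (Ascl2) to 0.46 (Kcnq1ot1) on those labelled female. Between the Sham arrays, which differ in sex label but not in exposure, they ran from −0.26 (Dio3) to 0.28 (Slc22a18), and again none passed a threshold (2.11% and 2.14% of all genes did). Between the TiO2-H arrays the range was −0.19 (Peg10) to 0.25 (Kcnq1ot1), with none past a threshold (1.51% and 2.76% of all genes were). In 22 of the 36 genes (61.1%) the difference between exposures was larger than both gaps between arrays of the same exposure, as it was in 41.4% of all genes tested and in 43.5% of those well above background on all 4 arrays. With the TiO2-H arrays paired across their sex labels, 1 gene, Kcnq1ot1, passed 1.5-fold (log2 difference of 0.63, array labelled TiO2-H female over Sham male, where 2.31% of all genes passed, and 2.41% were at or below 0.67-fold). The other crossed pair held none (2.46% and 1.93% of all genes). For scale, the SD of 10 repeated spots of 1 probe on 1 array was 0.062 to 0.067 (median over 399 probes, where above background).

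How far a gene's probes gave the same value could be read for 17 members with several probes well above background on all 4 arrays. The range of their differences had a median of 0.12 and was under 0.15 in 10 of them, with the narrowest for Dlk1 and the widest for Gnas (0.83). The sign differed between probes in 8 members, namely Asb4, Gnas, Impact, Nnat, Peg10, Plagl1, Snrpn and Trappc9. All probes of Zdbf2, Mest, Copg2 and Meg3 were above 0 and all probes of Dlk1, Mkrn3 and Peg12 below 0. With the mean of a gene's probes in place of the brightest, 16 of the 36 genes had both TiO2-H arrays above both Sham arrays and 9 had the reverse, where 28.3% and 27.0% of all genes did.

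**Figure D4:**
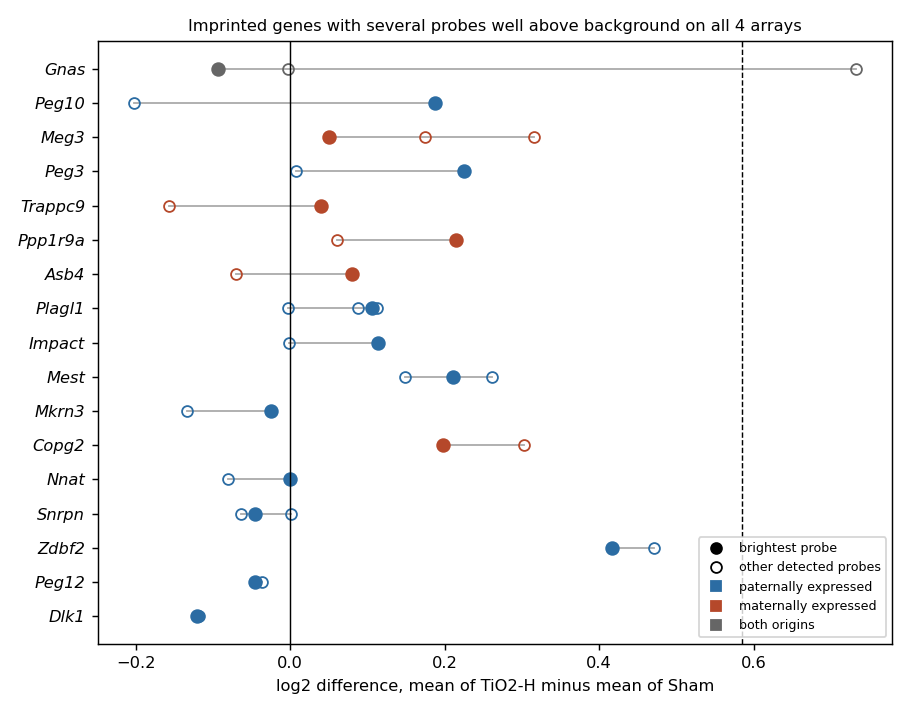
Log2 difference of TiO2-H minus Sham for each probe of the 17 imprinted genes with several probes well above background on all 4 arrays, with the brightest probe of a gene filled and the others open (dashed line, 1.5-fold). The probes of Dlk1, Peg12 and Zdbf2 lie close together, those of Gnas and Peg10 far apart.

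Related lists were read in the same fit. Of 36 other imprinted genes, 32 were tested, with a median of −0.0011, and both TiO2-H arrays were above both Sham arrays in 9 and below in 10, near the shares over all genes. The 3 with the largest difference were Kcnq1, a potassium channel gene (0.45, adjusted p = 0.402 in limma, well above background on the TiO2-H arrays only), Klf14, a transcription factor gene (−0.36, near background), and Slc38a4, an amino acid transporter gene (0.28). After scaling, the lowest signal well above background was lower on the TiO2-H arrays. Rtl1 and Phlda2, not well above background on any array, also came out at −0.36. The value of Klf14 thus does not show a difference in RNA. Of 19 genes of the insulin-like growth factor pathway, 18 were tested, with a median of 0.054, 9 with the TiO2-H arrays above and 4 with them below (28.9% and 26.5% of all genes). The largest differences were those of the receptors Insr (0.32) and Igf1r (0.25) and the ligand Igf1 (0.22). Of 17 genes that set, keep or erase imprints, 16 were tested, with a median of 0.033, 7 above and 4 below (the same shares of all genes apply). Dnmt3l, the cofactor of the de novo DNA methyltransferases, had the largest difference (−1.04, adjusted p = 0.412 in limma), with a deposited signal of 163 on the Sham male array against 58.3, 54.0 and 48.4 on the Sham female array and the arrays labelled TiO2-H male and female. It rested on the Sham male array. Tet1, an enzyme that oxidizes methylated cytosine, differed by 0.22 and Zfp445, a zinc finger gene that protects imprints, by 0.17. No gene of these lists was called after adjustment, and none passed a fold threshold the same way on both label pairs.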

How the data were processed

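RNA was measured on 4 one-color arrays (1 pool per group), and their small number limits precision. The authors deposited the scanner output and a value table, whose intensity values were identical for all non-control spots. Per the file headers, the intensity was made with Feature Extraction 10.10.1.1, which subtracts the background and does not scale between arrays. From these, the log2 intensity minus the 75th percentile of each array was computed, outlier spots were left out and spots of a probe averaged. A signal not well above background was set to the higher of itself and the lowest signal well above background on its array. After scaling, this lowest signal (log2) was −4.74 in Sham male and −4.65 in Sham female. It was −4.88 and −5.22 on the arrays labelled TiO2-H male and female. Genes well above background on at least 1 array were tested. Gene names came from a table of RefSeq genes (GRCm38.p6), which held 81.9% of 26206 accessions. The array's own annotation is of an older build, so that no gene positions are given.

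For the comparison of exposures, limma 3.58.1 (R 4.3.3) was run over 18824 genes with Benjamini-Hochberg adjustment. Python 3.11.15 with pandas 2.3.3 and numpy 2.4.6 served for the rest. In data simulated for this comparison, limma recovered 77% of 200 genes changed 3-fold and called 0.02685% of the others. The simulated arrays were independent, without shared litters, and the change was larger than any difference of a member. The recovered share does not give the power for differences of the size reported here. Fold thresholds of 1.5 and 0.67 are those of the study. The members, the lists and the tests were chosen with earlier results of these data known. Every member was to be named, and from the other lists the 3 genes with the largest difference and any gene past a fold threshold the same way on both label pairs. Markers were to be given by counts and ranges. Alternatives were no scaling, quantile normalization, a median scale, normexp with an offset of 50 (on median signals, as the files held no mean signal), the deposited table, other filters, no floor, the mean of a gene's probes, outlier spots kept, sex as a term, crossed sex labels, a threshold of 2-fold and leaving out each array. Counting every probe of a member, and the order of the arrays under other settings, were added after seeing the data. Methylation arrays were not analysed here.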

Additional observations from a re-analysis of the deposited data

Results flagged for a closer look

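Probes that did not stand for their gene held 2 differences past 1.5-fold. The probe of Gnas accession NM_201617 differed by 1.24 (log2) on the arrays labelled male, with a deposited signal of 164 on the array labelled TiO2-H male against 65.0 on the Sham male array, and by 0.23 on the arrays labelled female. The dimmer probe of Zdbf2 differed by 0.73 on the arrays labelled female (signals of 130 against 71.1) and by 0.21 on the arrays labelled male. Neither has a replicate within a label. The array labelled TiO2-H male also read highest for Gh and Pomc, and a relation to the Gnas value was not tested.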

How the results depend on the processing

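No gene had an adjusted p under 0.05 in limma in any of the 16 alternatives, where 1880 to 5637 genes were under 0.05 before adjustment, and none of the other imprinted genes, growth factor pathway genes or imprint maintenance genes did. Of the alternative values of single members, 508 were within 1 SE of the reported value and 68 were not. All members tested were well above background on all 4 arrays. The deposited table, the other filters, no floor and a sex term, as labelled or crossed, hence could not move their differences. Part of the 508 was thus fixed in advance and says nothing about robustness. The sign changed in 8 members without scaling, 5 after normexp correction, 4 with the mean of the probes, 1 to 3 when an array was left out, and 1 with quantile normalization or a median scale.

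Without scaling, the paternal median was 0.16 and the maternal median 0.19, beside 0.12 for all genes. Leaving out an array moved the paternal median between 0.012 and 0.078 and the maternal median between 0.060 and 0.093. The gap between them, paternal minus maternal, was −0.014 with quantile normalization, −0.080 after normexp correction, −0.082 with the mean of the probes and −0.065 without members of tissue-limited imprinting, and it ran from −0.080 to 0.014 over the arrays left out. One member passed 1.5-fold on the arrays labelled male without scaling, and 1 on the arrays labelled female. With the arrays paired across the sex labels it was 1 (Kcnq1ot1), and with every probe counted, 1 of 60 probes (Gnas) and 1 of 61 (Zdbf2). The count with both TiO2-H arrays below both Sham arrays was 1 without scaling and between 8 and 13 with an array left out (13 without the Sham female array and 13 without the array labelled TiO2-H female), and the count above was 20 to 23. With an array left out, the order compares fewer arrays, and 38.7% to 41% of all genes lay above and 35.9% to 38.4% below, so that the excess of members above was smaller than with all 4 arrays. The causes were not tested.

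The labels carry no replicate numbers that pair arrays. With sex as the block, 0 genes had an adjusted p under 0.05 in limma, both as labelled (2195 under 0.05 before adjustment) and crossed within TiO2-H (2069). Each member was read from 1 spot per array, except Mest and Igf2r, and 2 arrays per exposure limit the precision.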

Other observations

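The pituitary hormone gene Gh had a signal of 301 on the array labelled TiO2-H male and stayed near background elsewhere, and Pomc read 956 there against 570.5 to 590.3 elsewhere. Prl and Cga, also genes of pituitary hormones, were not well above background on any array.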
